A study of Mus musculus with 2 samples.

Results

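The collagen genes of the mouse neurohypophysis (NH) were taken as every gene whose symbol is Col, a number, the letter a and a number, which is how the chains of the collagen family are named. Of 27998 genes in the files, 44 carried such a symbol and 40 had 1 or more UMI (unique molecular identifier, 1 per captured mRNA molecule) in the 2 libraries together. The 4 without a UMI were *Col6a5*, *Col6a6*, *Col10a1* and *Col24a1*. The NH is the posterior lobe of the pituitary, where hypothalamic axons release oxytocin and vasopressin. It was dissected from C57BL/6 male mice 3 months of age, and single cells were sequenced from 2 separate pools of 5 mice each, with some tissue of the adjoining intermediate lobe (IL). Neither pool was treated or genetically altered, so the comparisons are between cell types, with n = 2 pools of males of 1 age. The tissue had been loosened with papain and Liberase, an enzyme mix that contains collagenases, which cut collagen protein.

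Collagens are made of chains that wind into a triple helix in the endoplasmic reticulum and are then secreted or held in the cell membrane. Fibrillar chains form the fibrils of connective tissue, fibril-associated chains decorate those fibrils, type IV chains form the network of basement membranes, and type VI chains form beaded filaments. Types XIII, XVII, XXIII and XXV are transmembrane collagens, whose triple-helical ectodomain stands outside the cell and can be shed. The NH is known for its fenestrated capillaries, which are set off from the axon endings by basement membranes, and for pituicytes, the resident astroglia that enclose the axon endings.

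The results below turn on 3 transmembrane genes and on the type IV genes, so their start regions are given first, from RefSeq on build GRCm38.p6. Each promoter line holds the 250 bases before the gene's start as RefSeq places it, 5′ to 3′ on the strand of the gene, with no annotated exon in it. Capitals mark exact matches, on either strand, to the TATA box (TATAAA), the CCAAT box (CCAAT) and the GC box (GGGCGG). The homeodomain core (TAATTA) and the E-box (CACGTG) were also searched and matched none of the printed sequences. *Col13a1* lies at chr10:61979109-61979358 on the minus strand, *Col23a1* at chr11:51289670-51289919 and *Col25a1* at chr3:130180595-130180844, both on the plus strand.

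Col13a1: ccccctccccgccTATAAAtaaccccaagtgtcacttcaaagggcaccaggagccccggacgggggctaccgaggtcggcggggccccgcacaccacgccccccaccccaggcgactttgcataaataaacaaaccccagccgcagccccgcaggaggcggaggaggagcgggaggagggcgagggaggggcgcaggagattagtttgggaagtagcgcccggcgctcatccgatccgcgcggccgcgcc
Col23a1: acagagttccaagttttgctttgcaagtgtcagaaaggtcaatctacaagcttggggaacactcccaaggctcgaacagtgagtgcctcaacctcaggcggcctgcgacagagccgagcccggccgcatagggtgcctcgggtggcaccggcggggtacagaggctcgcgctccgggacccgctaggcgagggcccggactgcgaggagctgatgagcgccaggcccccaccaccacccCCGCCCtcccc
Col25a1: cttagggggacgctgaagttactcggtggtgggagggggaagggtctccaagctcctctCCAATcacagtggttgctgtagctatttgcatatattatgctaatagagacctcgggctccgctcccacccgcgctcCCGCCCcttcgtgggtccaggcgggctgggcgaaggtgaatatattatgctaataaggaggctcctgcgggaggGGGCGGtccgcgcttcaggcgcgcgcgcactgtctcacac

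The 3 windows had a GC content of 68.8%, 66% and 60.4%. No single motif was in all 3 of them. The *Col13a1* window held a TATAAA at position 14, counted from its 5′ end. That of *Col23a1* held 1 GC box on the opposite strand at position 240, and that of *Col25a1* held a CCAAT at position 60 and GC boxes at 137 (opposite strand) and 211. Over 32851 mouse promoters of the same length, 12.4% held a TATAAA, 33.8% a CCAAT and 32.7% a GGGCGG on either strand, against 4, 13 and 20 of the 34 collagen promoters in the table. In the GENCODE annotation *Col25a1* begins upstream of the RefSeq start, at position 130131501 of chromosome 3, so the printed window lies within the gene as drawn there. The UMIs were read from the 3′ ends of mRNAs and do not show which start was used.

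The 6 type IV genes stand as 3 head-to-head pairs. *Col4a1* and *Col4a2* on chromosome 8 overlap by 22 bases at their starts. *Col4a4* and *Col4a3* on chromosome 1 are 71 bases apart, and *Col4a6* and *Col4a5* on chromosome X are 1308 bases apart. The shared start of the first pair (chr8:11312805-11312826, plus strand, GC box in capitals) and the gap of the second (chr1:82586850-82586920, printed on the minus strand, no motif found) are given because the members of each pair are compared below.

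Col4a1 and Col4a2: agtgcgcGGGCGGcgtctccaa
Col4a4 to Col4a3: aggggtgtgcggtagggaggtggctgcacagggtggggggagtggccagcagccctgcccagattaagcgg

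After the cell filters of the study, 273 cells with 699676 UMIs were kept in pool 1 and 255 cells with 726706 UMIs in pool 2, and no barcode of a kept cell occurred in both pools. The 11 clusters of the study were recovered from its deposited table of cluster means and joined into its 7 cell types: 196 pituicytes, 148 IL cells, 95 macrophage/microglia, 42 T-cell like cells, 23 epithelial-like cells, 13 cells of vascular endothelia and 11 vascular and leptomeningeal cells (VLMC). Of the 8 to 10 markers set for each type, 7 or more were highest in their own type in every type. Some of these markers were picked by the study from the same cells, so this is not an independent check. Epithelial-like cells of pool 1 had 683 UMIs of markers of anterior lobe endocrine cells and 110 of their own markers. In pool 2 they had 163 and 283. Median UMIs per cell ranged from 1412 in vascular endothelia to 3249 in IL cells. The VLMC held 1 cell with 163 and 1 with 267 UMIs of oligodendrocyte markers, and the cluster they came from carried both names in the deposited table. The study built its clusters on variable genes that could include collagens. When the kept cells were clustered again, 8 collagens were among the 900 most variable genes, so differences of collagens between types are not independent of the types. Levels are counts per 1e+06 UMIs of the type (CPM) in each pool, and ± is the SD over the 2 pools.

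A UMI was found in the kept cells for 35 of the 40 genes. Collagens made up 3954 ± 233 CPM in pituicytes, 4328 ± 2374 in VLMC and 2699 ± 826 in vascular endothelia (n = 2 pools). Epithelial-like cells had 359 ± 4.99, IL cells 140 ± 33.5 and macrophage/microglia 136 ± 17.1 CPM. Not 1 of the 84016 UMIs of T-cell like cells was a collagen, which allows up to 35.7 CPM for the whole family, a limit for counting error only. VLMC could not be placed among the 3 types at the top, since their SD spanned the levels of pituicytes and vascular endothelia. The order of pituicytes and vascular endothelia was not tested. Pituicytes held 893 of the 1032 collagen UMIs of pool 1 and 1044 of the 1191 of pool 2, because they combined a high level with many cells.

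**Figure D1:**
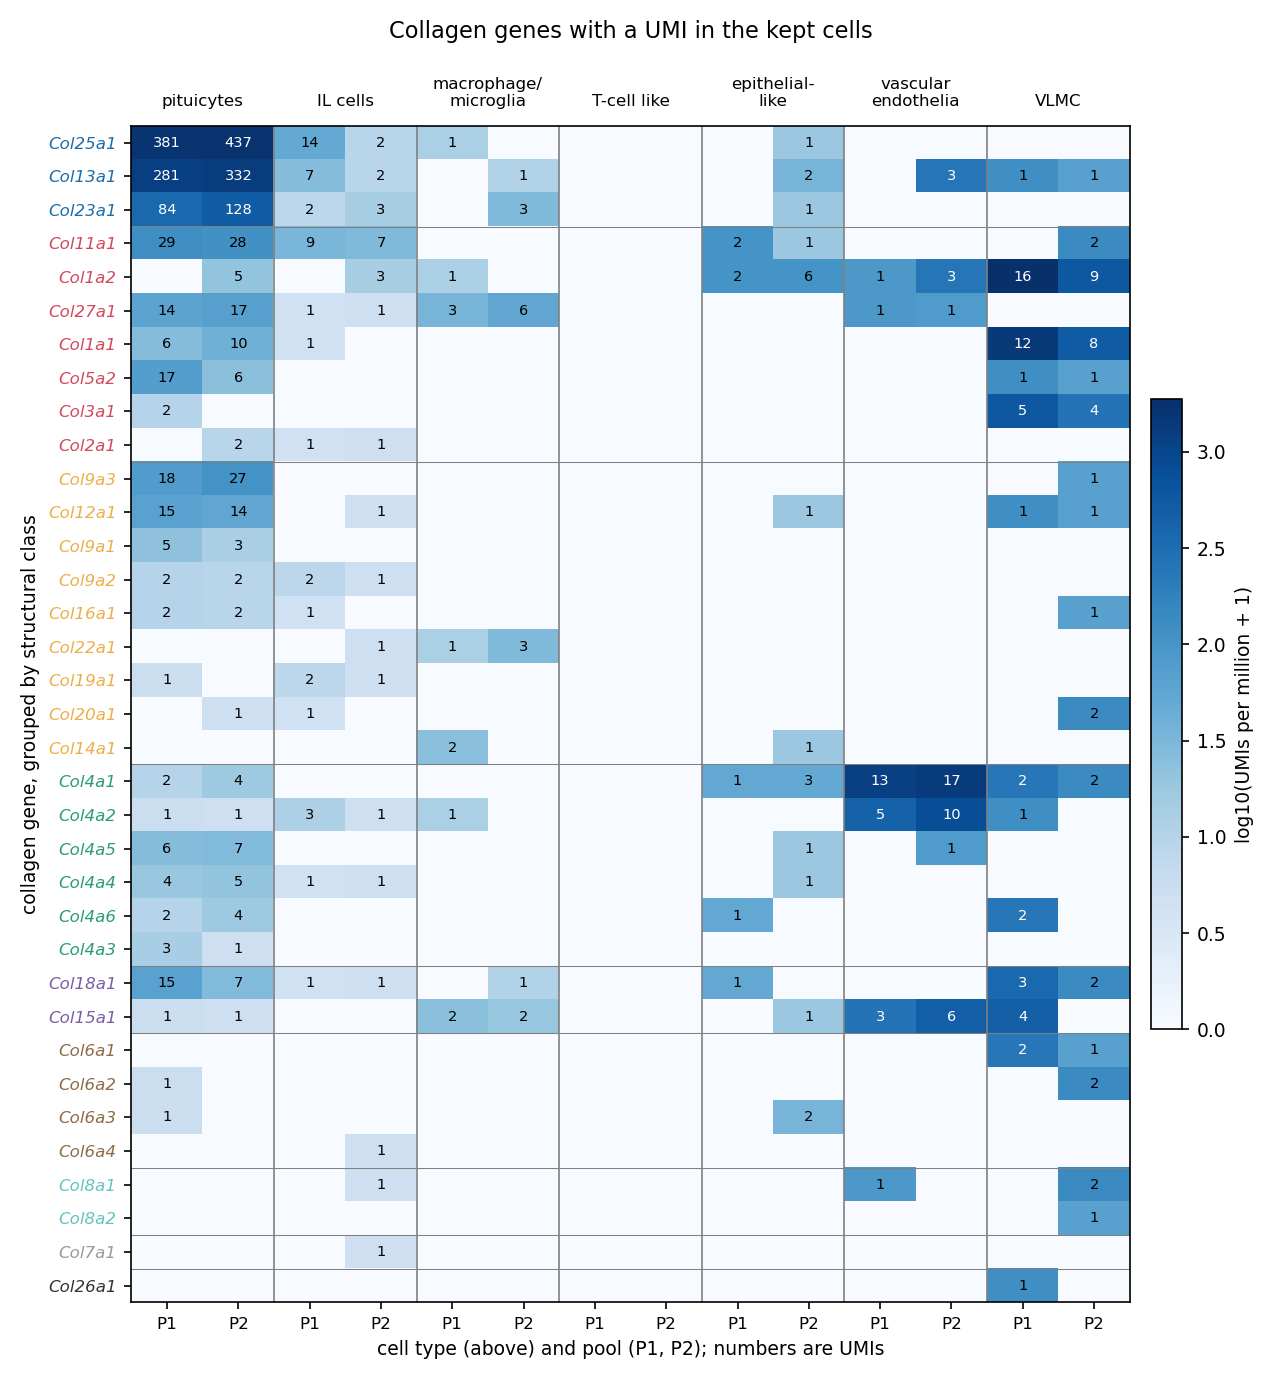
UMIs (numbers) and log10(CPM + 1) (colour) of the 35 collagen genes found in the kept cells, by cell type and pool (P1, P2), with gene names coloured by structural class. Dark squares include the transmembrane genes in pituicytes, *Col4a1*, *Col4a2* and *Col15a1* in vascular endothelia and *Col1a1*, *Col1a2* and *Col3a1* in VLMC. The 2 columns of T-cell like cells are empty.

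The class of collagen differed between the 3 types at the top. Transmembrane chains made up 84.8% of the collagen UMIs of pituicytes, at 3352 ± 264 CPM. In vascular endothelia 70.8% were type IV chains, at 1914 ± 464 CPM, and transmembrane chains were 4.62%. In VLMC 63.7% were fibrillar, at 2797 ± 1707 CPM, with 9.89% of multiplexins (types XV and XVIII, which border basement membranes) and 5.49% of type VI. These shares describe the counts, with no test, since the cells of a type are not replicates.

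**Figure D2:**
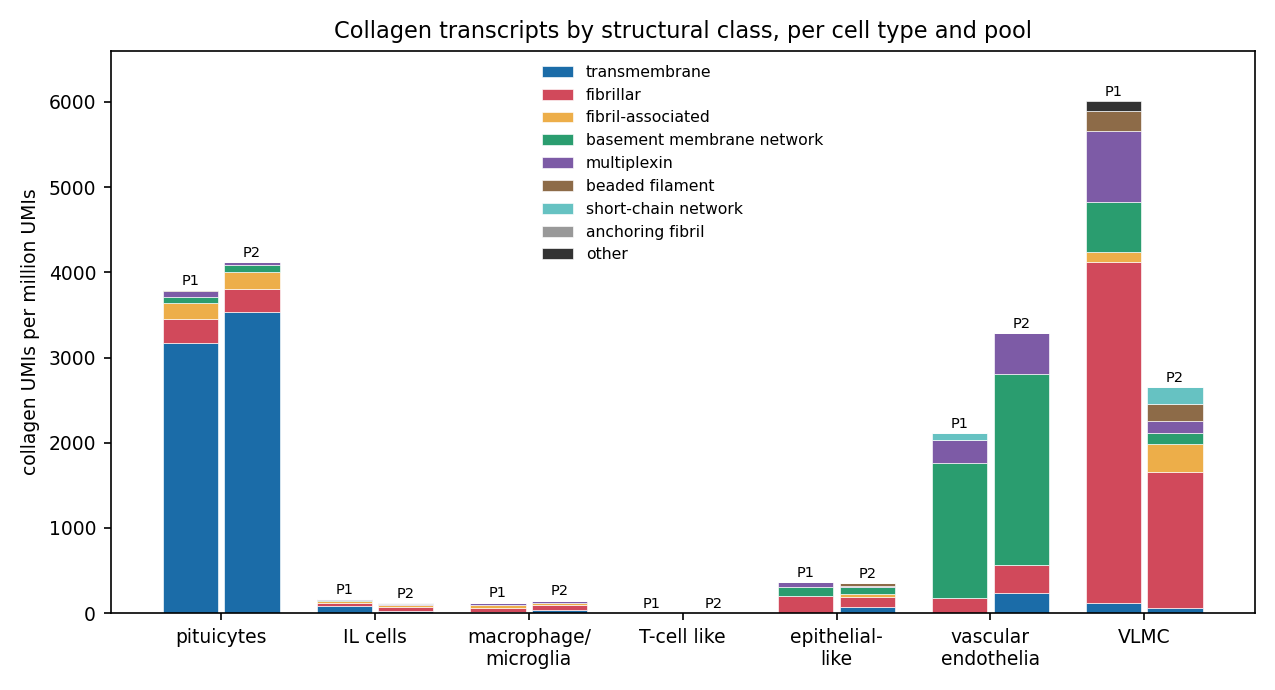
Collagen CPM (stacked by structural class) in each cell type, 1 bar per pool (P1, P2). Pituicyte bars reach 3789 and 4119 and are mostly transmembrane, vascular endothelia bars are mostly basement membrane network, and VLMC bars, 6006 and 2649, are mostly fibrillar.

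The 3 transmembrane genes were high in pituicytes and low or missing elsewhere. *Col25a1* (chromosome 3, 130131501 to 130599877) encodes the chain first known as a component of amyloid plaques and is needed for motor axons to enter muscle. It had 381 UMIs in 97 of 108 pituicytes of pool 1 and 437 UMIs in 75 of 88 of pool 2, or 1617 and 1724 CPM. The IL cells had 14 and 2 UMIs, macrophage/microglia 1 and 0, and epithelial-like cells 0 and 1. No UMI was found in T-cell like cells, vascular endothelia or VLMC. Both pools were high in pituicytes and no sum of another type came near them.

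*Col13a1* (chromosome 10, 61838236 to 61979108), a chain of cell adhesions that is needed at the neuromuscular junction, followed with 281 and 332 UMIs in pituicytes, or 1192 and 1310 CPM. It was the more scattered of the 3 outside pituicytes. It had 7 and 2 UMIs in IL cells, 0 and 3 in vascular endothelia (the 3 UMIs in 3 cells of pool 2), 1 and 1 in VLMC, 0 and 2 in epithelial-like cells and 0 and 1 in macrophage/microglia. In the deposited cluster means, per 10000 UMIs, *Col13a1* stood at 1.55 in vascular endothelia and 1.43 in the VLMC cluster. The pituicyte clusters stood at 12.7 to 13.4. *Col23a1* (chromosome 11, 51289920 to 51583918), a chain found both on the membrane and in a shed form, had 84 and 128 UMIs in pituicytes, or 356 and 505 CPM. Elsewhere it had 2 and 3 UMIs in IL cells, 0 and 3 in macrophage/microglia and 0 and 1 in epithelial-like cells. The 4th transmembrane chain, *Col17a1* of skin hemidesmosomes, had 2 UMIs in the files and none in a kept cell.

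Summed over both pools, the ratio of CPM in pituicytes to all other kept cells was 87.1 for *Col25a1*, 69.1 for *Col13a1* and 45.1 for *Col23a1*. The 95% counting intervals were 54.7 to 148, 42.8 to 119 and 23.3 to 100.1. Within pool 1 the ratios were 50.01, 69.2 and 82.7 and within pool 2 they were 272, 68.9 and 34.1. The order of the 3 ratios thus differed between the pools, while no interval of any of them reached down to 1. The ratio for *Col25a1* was lower in pool 1, where IL cells held 14 of its 15 UMIs outside pituicytes.

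For the tests, UMIs were summed per pool and type into 14 sums, and every type was set against the average of the remaining 6 on the log2 scale. The quasi-likelihood test of edgeR was used, and p-values were adjusted over 4510 genes by Benjamini-Hochberg. Genes counted as called when the adjusted p was 0.05 or less and the log2 fold change 1.44 or more (a natural log of 1, the limit of the study). Of the collagens, 10 had enough counts to be tested. A gene confined to 1 type passed the filter on low counts through that type. The share of tested members that was called, and their median fold change, thus say nothing about the family. In pituicytes 6 of the 10 were called higher, where 16.8% of all genes tested were. These were *Col25a1* (log2 fold change 8.65, SE 0.43), *Col13a1* (6.35, SE 0.35), *Col23a1* (6.72, SE 0.53), *Col11a1* (4.11, SE 0.72), *Col1a1* (3.10, SE 1.03) and *Col18a1* (2.82, SE 0.90). The median over the 10 was 2.96, against 0.59 over all genes tested. With no filter on low counts it was 1.83 over 35 members, against 1.03 over all genes. The fold changes of genes without UMIs in some types depend on the small count edgeR adds and are no bound.

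Adjusted p-values by edgeR were 4.3e-87 for *Col25a1*, 8.2e-69 for *Col13a1* and 3.7e-35 for *Col23a1*. They were 1.9e-07 for *Col11a1*, 0.011 for *Col18a1* and 0.016 for *Col1a1*. The first 3 stayed called under each alternative that was run for them, and with DESeq2 *Col18a1* and *Col1a1* were lost. With the mitochondrial share held under 10%, the count dropped to the 3 transmembrane genes of 8 members tested, where 9.11% of all genes were called. *Col25a1* and *Col13a1* had been picked as pituicyte markers by the study from the same cells, so their calls are not independent evidence.

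Detection per cell separated pituicytes from IL cells at matched depth as well. A UMI of *Col25a1* was found in 87.8% of pituicytes (95% exact Clopper-Pearson interval 82.3 to 92.0), of *Col13a1* in 79.1% (72.7 to 84.6) and of *Col23a1* in 54.1% (46.8 to 61.2). These intervals treat cells as independent and do not cover the spread between pools. Among the kept cells of all types, the shares in pools 1 and 2 were 37.7% and 30.2% for *Col25a1* and 32.2% and 31.4% for *Col13a1*. For *Col23a1* they were 17.9% and 25.1%. These shares also depend on how many kept cells were pituicytes, 108 of 273 in pool 1 and 88 of 255 in pool 2. After each cell was thinned to 1000 UMIs, which removed no cell, the shares in pituicytes were 76.5%, 63.8% and 32.7%. Among IL cells, which had more UMIs per cell (median 3249 against 2055.5), the shares were 4.05%, 3.38% and 2.03%, and 3.38%, 1.35% and 0.676% when thinned. T-cell like cells, which should lack these genes, had 0 of 42 cells with a UMI at a median of 1596 UMIs. Their number allows a share of up to 7.14%, which is too wide a limit to set the IL shares against. Free RNA was measured in pool 1 in barcodes with 1 to 50 UMIs, where the 3 genes stood at 153, 152 and 69.2 CPM, against 49.8, 24.9 and 7.11 CPM in the IL cells of that pool. The part of free RNA in the IL counts was not tested.

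**Figure D3:**
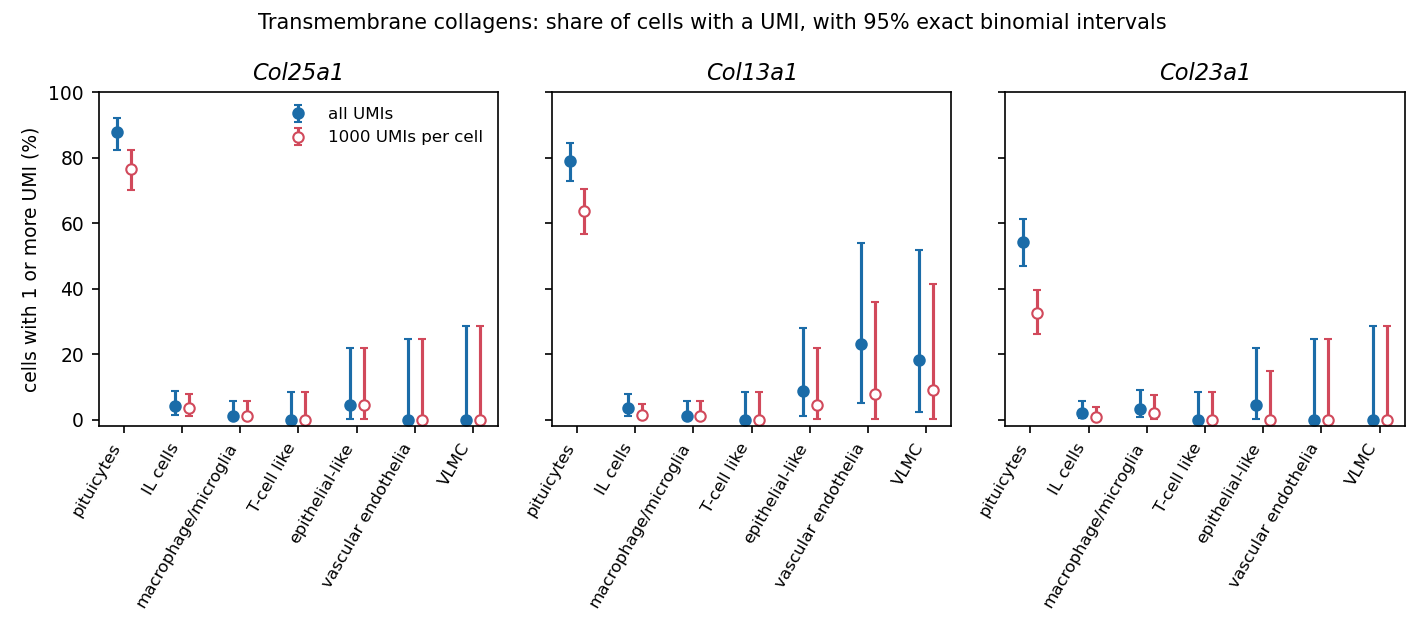
Share of cells with 1 or more UMI of each transmembrane collagen by cell type, from all UMIs (filled) and after thinning each cell to 1000 UMIs (open), with 95% exact binomial intervals. Pituicytes stand at 87.8%, 79.1% and 54.1% from all UMIs, and the wide intervals of vascular endothelia and VLMC come from 13 and 11 cells.

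The 3 genes were often found in the same cells. All 3 had a UMI in 87 of 196 pituicytes, exactly 2 in 72, exactly 1 in 28 and none in 9. Cells with all 3 were the deepest, with a median of 2571 UMIs, against 1910.5, 1724 and 2016 in cells with 2, 1 and none, and the part of depth was not tested. Per pool, 38 of 108 and 49 of 88 pituicytes had all 3. *Col13a1* and *Col25a1* occurred together in 140 cells, the first without the second in 15 and the second without the first in 32. Among all collagens the median pituicyte had UMIs of 3 members and the highest had 8, and 188 of 196 had any.

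Of the 148 IL cells, 9 had a UMI of a transmembrane collagen, 30 UMIs in all, of which 1 cell held 12. In 3 of the 9 cells, with 12 UMIs together, the pituicyte markers outnumbered the IL markers. Direct contrast of pituicytes with IL cells called 6 of 10 members higher in pituicytes, where 10% of all genes tested were, and none lower, where 6.72% were. Median log2 fold change was 3.25 over the 10 members and 0.01 over all genes. With no filter on low counts it was 1.89 over 35 members and 0 over all genes. *Col13a1* differed by 6.00 (SE 0.46), *Col25a1* by 5.63 (SE 0.43) and *Col23a1* by 5.23 (SE 0.50), followed by *Col1a1* (3.37, SE 1.06), *Col18a1* (3.14, SE 0.93) and *Col11a1* (1.80, SE 0.51). With DESeq2 only the 3 transmembrane genes were called, where 3.61% of all genes were. With cells of any type left out where another marker list outnumbered their own, an alternative chosen after seeing the data, the values for *Col13a1* and *Col25a1* were 6.78 and 6.16.

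Besides the transmembrane chains, pituicytes held most UMIs of several further collagens, all at lower levels. *Col11a1* (chromosome 3, 114030540 to 114220718), a minor fibrillar chain known from cartilage and the inner ear, had 29 and 28 UMIs in pituicytes, at 117 ± 8.91 CPM. In IL cells it had 9 and 7 UMIs, at 30.02 ± 2.79 CPM, the same total as *Col25a1* there. Its ratio of pituicytes to all others was 5.20 (95% counting interval 3.10 to 9.03). VLMC of pool 2 had 2 UMIs, which put them above the 110 CPM of pituicytes in that pool. Epithelial-like cells had 2 and 1.

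*Col9a3* (chromosome 2), 1 of the 3 chains of type IX collagen, which sits on cartilage fibrils, had 18 and 27 UMIs in pituicytes and 1 UMI in any other cell, in VLMC of pool 2. Its partners were scarce. *Col9a1* had 5 and 3 UMIs, all in pituicytes, and *Col9a2* had 2 and 2 in pituicytes and 2 and 1 in IL cells. Only 1 of the 3 chains was found in 47 pituicytes, 2 in 1 pituicyte and all 3 in none, at depths where 148 pituicytes had no UMI of any.

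*Col5a2* (chromosome 1), a chain of type V collagen that helps to set fibril width, had 17 and 6 UMIs in pituicytes and 1 and 1 in VLMC. *Col12a1* (chromosome 9), a fibril-associated chain, had 15 and 14 in pituicytes, 1 and 1 in VLMC, 0 and 1 in IL cells and 0 and 1 in epithelial-like cells. *Col27a1* (chromosome 4), a fibrillar chain of cartilage, had 14 and 17 in pituicytes, 3 and 6 in macrophage/microglia and 1 and 1 in IL cells and in vascular endothelia. Per UMI of the type, pituicytes were not the highest for these 3 genes in either pool. *Col5a2* stood at 47.9 ± 34.3 CPM in pituicytes and 92.0 ± 36.4 in VLMC, and *Col12a1* at 59.4 ± 5.95 and 92.0 ± 36.4. *Col27a1* stood at 63.2 ± 5.41 CPM in pituicytes and 84.1 ± 5.70 in vascular endothelia. The levels in the small types rest on 2 UMIs each. These 3 and *Col9a3* had too few counts for the filter of the test. With no filter all 4 were called higher in pituicytes, together with *Col4a5* and *Col9a1*, so that 12 of 35 members were, against 12.4% of 16258 genes. *Col27a1* was then also called in macrophage/microglia (log2 fold change 3.23, SE 1.02).

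*Col18a1* (chromosome 10, 77052178 to 77166548), whose cleaved end is endostatin, was called in 2 types. Pituicytes had 15 and 7 UMIs, at 45.6 ± 25.5 CPM, and VLMC had 3 and 2 UMIs from 4 of 11 cells, at 243 ± 156 CPM. Vascular endothelia, with 23834 UMIs in all, had none. *Col1a1* (chromosome 11, 94936224 to 94953042), the main chain of type I collagen, likewise had 6 and 10 UMIs in pituicytes and 12 and 8 in VLMC. Its CPM in pituicytes was 32.5 ± 9.89 against 972 ± 625 in VLMC, and all other cells had 1 UMI. Relative to all other cells pooled, pituicytes had a ratio of 1.46 (95% counting interval 0.712 to 2.94), which was 0.909 in pool 1 alone and 2.33 in pool 2. The call in pituicytes thus rests on a mean over 6 types of which 4 had no UMI, and not on a higher level than in the other cells together.

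Among the type IV genes, 2 patterns were seen. *Col4a1* (chromosome 8, 11198423 to 11312826) and *Col4a2* (11312805 to 11449287), whose chains form the common network of basement membranes, were highest in vascular endothelia. *Col4a1* had 13 and 17 UMIs there, at 1146 and 1361 CPM, and *Col4a2* had 5 and 10, at 441 and 801 CPM. Pituicytes had 2 and 4 UMIs of *Col4a1* and 1 and 1 of *Col4a2*, VLMC 2 and 2 and 1 and 0, and epithelial-like cells 1 and 3 of *Col4a1* and none of *Col4a2*. IL cells had no *Col4a1* and 3 and 1 UMIs of *Col4a2*, and macrophage/microglia 1 and 0 of *Col4a2*. The ratio of vascular endothelia to all other cells was 126 (95% counting interval 64.8 to 257) for *Col4a1* and 110 (43.9 to 300.5) for *Col4a2*. Both chains had a UMI in 8 of the 13 cells, 1 of them in 2 and neither in 3.

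The other pairs were sparse, and most of their UMIs were in pituicytes. *Col4a5* had 6 and 7 UMIs in pituicytes and 0 and 1 in vascular endothelia and in epithelial-like cells. *Col4a6* had 2 and 4 in pituicytes, 2 and 0 in VLMC and 1 and 0 in epithelial-like cells. *Col4a4* had 4 and 5 in pituicytes, 1 and 1 in IL cells and 0 and 1 in epithelial-like cells, and *Col4a3* had 3 and 1, all in pituicytes. The ratio of pituicytes to all other cells was 12.5 (95% counting interval 2.82 to 114) for *Col4a5* and 5.75 (1.43 to 33.0) for *Col4a4*, and 3.83 (0.818 to 23.7), which includes 1, for *Col4a6*. By CPM over both pools *Col4a5* was highest in vascular endothelia, from 1 UMI, and *Col4a6* in VLMC, from 2 UMIs of 1 cell. For *Col4a1* and *Col4a2* the same ratio was 0.303 (0.105 to 0.721) and 0.182 (0.0207 to 0.747). Over both pools, the intervals of *Col4a5* and *Col4a4* lay above 1 and those of *Col4a1* and *Col4a2* below it. In each pool alone those of *Col4a4* and *Col4a2* included 1, as did that of *Col4a1* in pool 1 (0.0275 to 1.05). Vascular endothelia held 30 of the 38 *Col4a1* UMIs and 15 of the 21 *Col4a2* UMIs outside pituicytes, so the low ratios of these genes rest mostly on that type.

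In vascular endothelia edgeR called 3 of the 10 tested members higher, where 3.41% of all genes tested were. They were *Col4a1* (log2 fold change 6.63, SE 0.67, adjusted p by edgeR 9e-21), *Col4a2* (6.12, SE 0.90, 1.6e-09) and *Col15a1* (4.72, SE 0.97, 7.6e-05). The median over the 10 was -0.49, as it was over all genes tested. *Col15a1* (chromosome 4, 47208161 to 47313167), a multiplexin at the border of vascular basement membranes, had 3 and 6 UMIs there, in 8 of 13 cells. It also had 4 and 0 UMIs in VLMC, 2 and 2 in macrophage/microglia, 1 and 1 in pituicytes and 0 and 1 in epithelial-like cells. Vascular endothelia stood at 264 and 480 CPM of *Col15a1*. They were the highest type in pool 2 only, as VLMC were the highest in pool 1. Of the 13 cells of vascular endothelia, 2 held 18 of the 23 UMIs of *Rgs5*, a pericyte marker. Without them *Col4a1* had 24 of its 30 UMIs, *Col4a2* 14 of 15 and *Col15a1* 9 of 9, and the levels over the remaining cells were 1341, 782 and 503 CPM, against 1259, 629 and 378 over all 13.

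The fibrillar genes of type I and type III collagen were highest in VLMC in both pools. *Col1a2* (chromosome 6, 4504814 to 4541544), the second chain of type I collagen, had 16 and 9 UMIs, at 1240 ± 911 CPM, and *Col3a1* (chromosome 1), of type III collagen, had 5 and 4, at 427 ± 229 CPM. Outside VLMC *Col3a1* had 2 UMIs, both in pituicytes of pool 1. The ratios of VLMC to all other cells were 70.0 (95% counting interval 34.8 to 142) for *Col1a1*, 70.8 (38.0 to 133) for *Col1a2* and 268 (55.4 to 2545) for *Col3a1*. Within pools 1 and 2 they were 139.5 and 37.7 for *Col1a1* and 325.6 and 24.95 for *Col1a2*. For *Col3a1* the ratio was 203.5 in pool 1, and in pool 2 no other cell had a UMI. The *Col1a2* ratio of each pool lay outside its interval over both pools, which does not cover the spread between pools. The levels of all 3 genes were higher in pool 1 than in pool 2, from 5 and 6 cells.

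*Col6a1* had its 3 UMIs in VLMC (2 and 1), and *Col6a2* had 0 and 2 there and 1 and 0 in pituicytes. Their partner chain *Col6a3* had 0 and 2 UMIs in epithelial-like cells and 1 in pituicytes. The short-chain genes *Col8a1* and *Col8a2*, known from vessel walls and the cornea, had 0 and 2 and 0 and 1 UMIs in VLMC, and *Col8a1* 1 each in vascular endothelia and IL cells. All of these are too few to place a gene in a type.

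VLMC had 3 of 10 tested members called higher by edgeR, where 2.88% of all genes tested were. They were *Col1a1* (log2 fold change 7.61, SE 0.90, adjusted p by edgeR 7e-15), *Col1a2* (5.53, SE 0.65, 4.2e-15) and *Col18a1* (4.46, SE 1.30, 0.016). The median over the 10 was 3.02, against -0.39 over all genes tested. With no filter on low counts it was 2.31 over 35 members, against -0.94 over all genes. *Col15a1* (3.50, SE 1.21) and *Col4a1* (3.38, SE 1.15) missed the limit at adjusted p of 0.068 and 0.062 by edgeR. Scaling by TMM set the median of all genes at -0.39 in VLMC, -0.49 in vascular endothelia and 0.59 in pituicytes, and with library size alone it was 0.26, 0.22 and 0.39. With library size alone 5 of the 10 members were called in VLMC, where 4.24% of all genes tested were, *Col15a1* and *Col4a1* among them. With DESeq2 *Col4a1* was called and *Col18a1* had no adjusted p.

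The 11 VLMC were not alike. A UMI of *Col1a1*, *Col1a2* or *Col3a1* was found in 8 of them, at least 2 of the 3 genes in each, and their total collagen UMIs ranged from 5 to 23. The other 3 had no UMI of the 3 genes and 0, 1 and 1 collagen UMIs. Of those 3 cells, 1 had 163 UMIs of oligodendrocyte markers, another 267 and the third 5, against 0 to 4 in the 8 cells. Pool 1 held 1 of the 3 and pool 2 held 2, and the part of this makeup in the lower level of pool 2 was not tested. In 4 VLMC another marker list outnumbered their own, that of oligodendrocytes in 1 cell of each pool and that of pituicytes in 2 cells of pool 2. Without these 4, collagens made up 7384 CPM and 5 of 12 tested members were called, where 2.2% of all genes tested were. *Col15a1* and *Col4a1* were again among them (an alternative chosen after seeing the data).

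**Figure D4:**
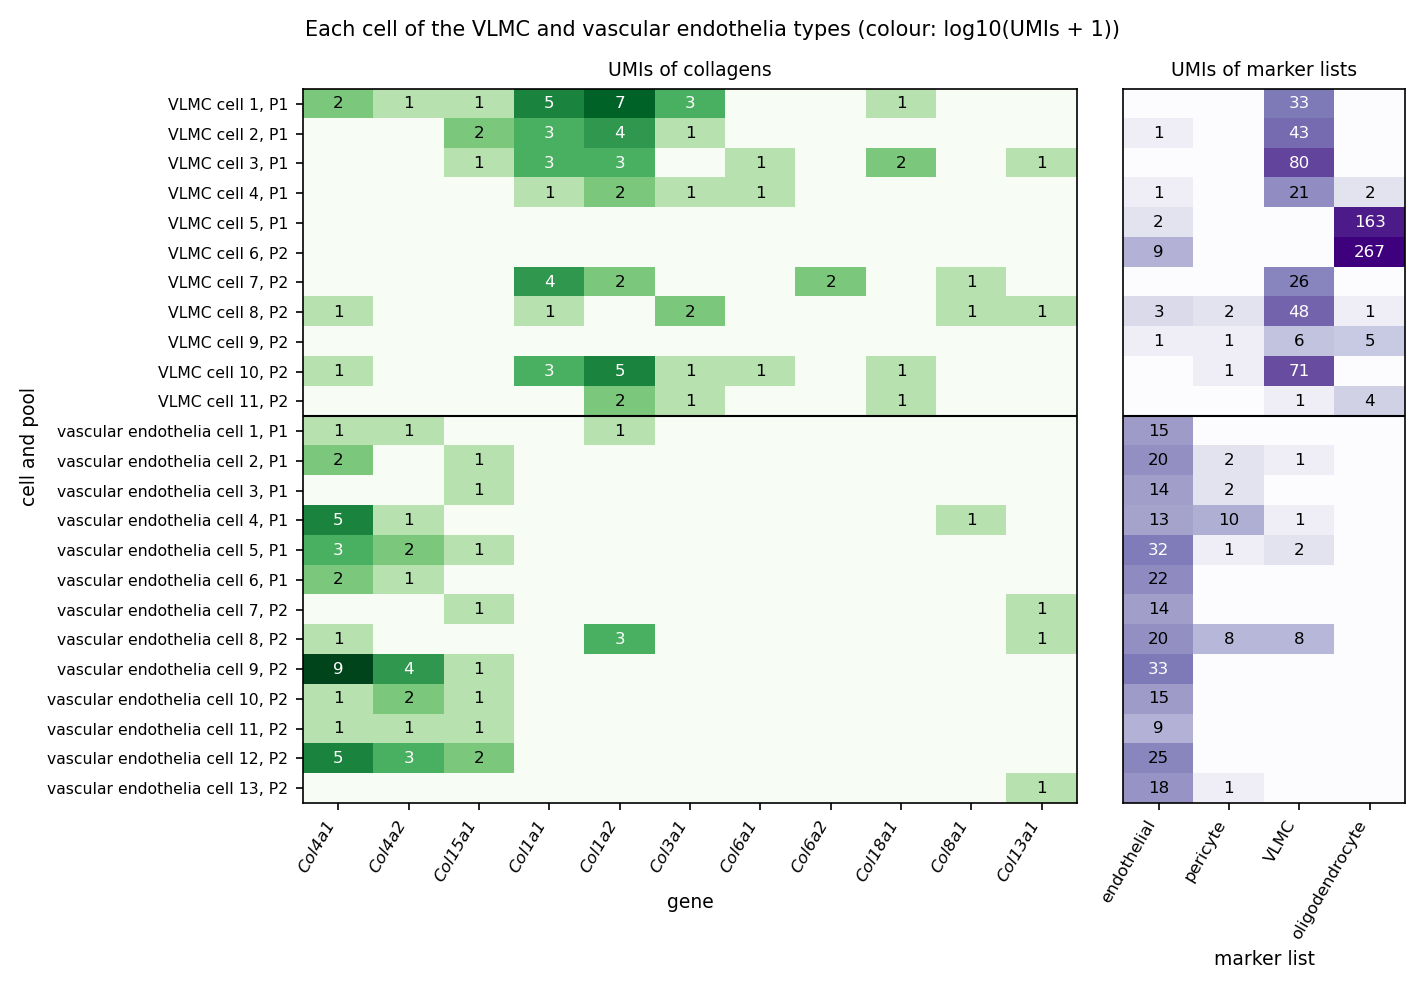
UMIs of 11 collagens (left) and summed UMIs of 4 marker lists (right) in each of the 11 VLMC and 13 cells of vascular endothelia, 1 row per cell with its pool. Fibrillar genes fill 8 VLMC rows, and 2 VLMC rows have 163 and 267 oligodendrocyte marker UMIs and none of the 11 collagens. *Col4a1*, *Col4a2* and *Col15a1* are in 10, 8 and 8 of the 13 endothelial rows, and cell 13 has none of these genes.

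Set against each other, vascular endothelia had 1 member called higher than VLMC, where 1.62% of all genes tested were, and 2 lower, where 1.13% were. The median log2 fold change was 0 over the 10 members and -0.10 over all genes. *Col4a1* was higher in vascular endothelia by a log2 fold change of 2.79 (SE 0.79, adjusted p by edgeR 0.021). *Col1a1* (-8.64, SE 2.00, adjusted p by edgeR 0.0015) and *Col1a2* (-2.75, SE 0.81, 0.029) were lower. Vascular endothelia had 0 UMIs of *Col1a1* and of *Col3a1* in 23834, and 1 and 3 of *Col1a2*, of which 3 came from 1 of the cells high in *Rgs5*. With DESeq2 the call of *Col4a1* was lost, as it was without the 4 VLMC named above. With the pool as a block, which pairs sums from the same mice, *Col1a2* missed the limit (-2.76, SE 0.86, adjusted p by edgeR 0.0503), as it did under 4 other alternatives, so of the 3 only *Col1a1* was called under every alternative that gave a value.

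The remaining types had few collagens. In epithelial-like cells *Col1a2* had 2 and 6 UMIs in 8 of 23 cells, 34.8% (95% exact interval 16.4 to 57.3), while *Col1a1* had none. Its CPM there was 103 ± 1.43, with a log2 fold change of 2.17 (SE 0.88, adjusted p by edgeR 0.11), so it was not called. T-cell like cells again had 0 of 42. None of the 10 tested members was called in epithelial-like cells, where 8% of all genes tested were, in IL cells (16.9%), in macrophage/microglia (16.5%) or in T-cell like cells (9.47%). An unadjusted p under 0.05 by edgeR, in either direction, was found for 2 members each in epithelial-like cells, IL cells and T-cell like cells and for 0 in macrophage/microglia, and DESeq2 called none higher in the 4 types. Macrophage/microglia held 4 of the 5 UMIs of *Col22a1* (1 and 3) and 2 of the 3 of *Col14a1*, both fibril-associated.

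The genes with the fewest UMIs were as follows. *Col19a1* had 4 UMIs, 3 of them in IL cells, and *Col2a1*, the main chain of cartilage, had 4, in pituicytes of pool 2 and in IL cells. *Col16a1* had 6, of which 4 in pituicytes, and *Col20a1* 4, of which 2 in VLMC. *Col6a4* and *Col7a1* had 1 UMI each, in IL cells, and *Col26a1* 1 in VLMC. Found only outside the kept cells were *Col5a1* (29 UMIs), *Col5a3* (12), *Col17a1* and *Col28a1* (2 each) and *Col11a2* (1).

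The study divided pituicytes into clusters a, b and c, with 87, 55 and 54 cells. *Col25a1* stood at 1882 ± 121, 1516 ± 79.5 and 1559 ± 115 CPM in them (n = 2 pools). *Col13a1* stood at 1297 ± 197, 1187 ± 122 and 1151 ± 28.2, and *Col23a1* at 420 ± 82.7, 436 ± 161 and 457 ± 120. No order was the same for the 3 genes, and only for *Col25a1* did both pools of a cluster (a, at 1968 and 1796) lie above both pools of the others (1460 to 1641). A quasi-likelihood F-test by edgeR on 6 sums called 5 of 2764 genes, 0.181%, and none of the 6 collagens tested, of which none had an unadjusted p under 0.05 (111 genes did). The largest difference among the 6 was in *Col27a1*, 1.23 lower in c than in a on the log2 scale (adjusted p by edgeR 0.997). Median mitochondrial share was 9.90%, 17.0% and 20.7% in a, b and c.

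The deposited cluster means, which pool both libraries, place the peak of 13 collagens in the cluster of VLMC and oligodendrocyte precursors, 13 in a pituicyte cluster and 3 in vascular endothelia. In cluster a of the pituicytes peaked *Col25a1* and *Col13a1* with 6 others, and in cluster b *Col23a1* and *Col4a3*. In cluster c were *Col9a1*, *Col9a3* and *Col19a1*. Since the table holds no spread, these peaks are the authors' means only, and for most genes rest on a few UMIs.

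Collagen mRNA was also found outside the kept cells. Of all UMIs of *Col25a1* 49.3% lay in kept cells, of *Col13a1* 42.6% and of *Col23a1* 40.8%, but of *Col1a2* only 18.7%, of *Col3a1* 10.7% and of *Col6a1* 7.32%. These shares join unlike sets, since pool 1 came with 170936 barcodes and pool 2 with only 1500. Kept cells held 396 of 1095 *Col25a1* UMIs in pool 1 and 440 of 602 in pool 2. For *Col1a2* they held 20 of 196 and 26 of 50. In pool 1, whose matrix kept all barcodes, those with 1 to 50 UMIs, which hold mostly free RNA, had 718 collagen CPM against 1475 in the kept cells. Of 18 members with 20 or more UMIs in the 2 sets together, 8 had a higher CPM in the near-empty barcodes and 10 in the kept cells. *Col25a1* stood at 153 against 566 CPM and *Col13a1* at 152 against 413. *Col1a2* stood at 55.5 against 28.6 and *Col3a1* at 31.7 against 10.0. The VLMC marker *Dcn* was likewise higher in near-empty barcodes, at 305 CPM against 111 in kept cells. Other fibrillar genes were lower there, *Col11a1* at 25.4 against 57.2 CPM, *Col5a2* at 10.04 against 25.7 and *Col27a1* at 8.98 against 27.2. *Scn7a*, a pituicyte marker, moved with the transmembrane genes, at 252 against 587.

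**Figure D5:**
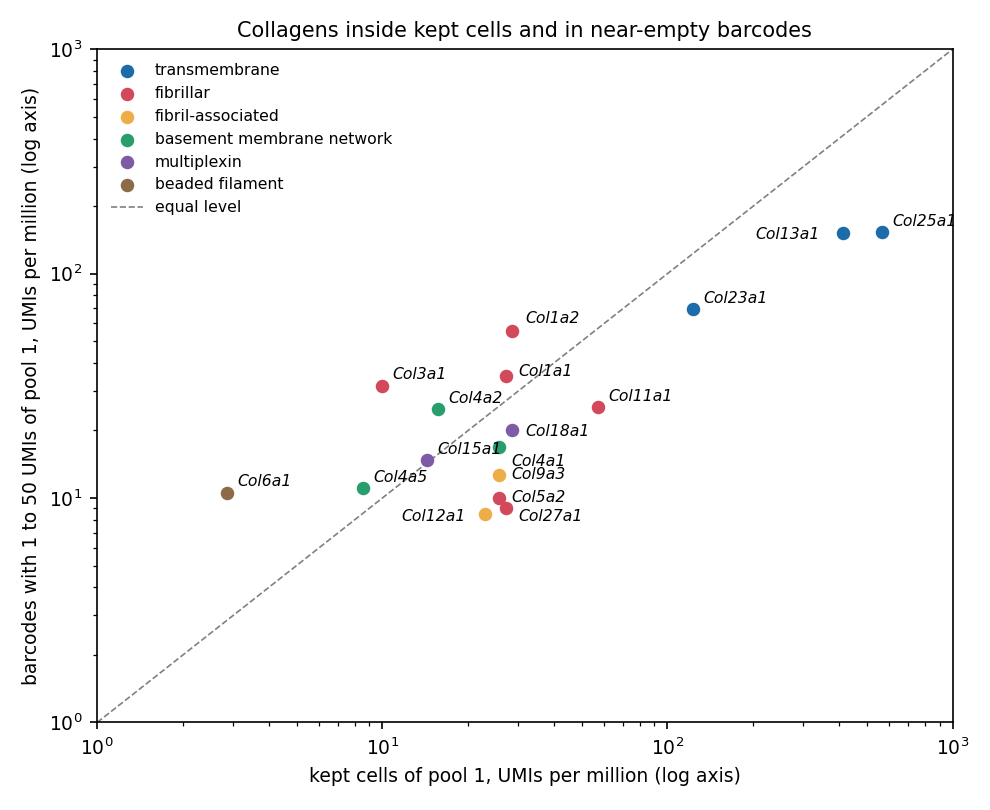
CPM of 17 collagens in the kept cells of pool 1 (horizontal) and in its barcodes with 1 to 50 UMIs (vertical), both on log axes, coloured by class, with a dashed line of equal level. *Col25a1*, *Col13a1* and *Col23a1* lie below the line and *Col1a1*, *Col1a2*, *Col3a1* and *Col6a1* above it; *Col5a1*, with 23 UMIs in those barcodes and none in kept cells of pool 1, is not drawn.

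Barcodes that failed the mitochondrial limit alone, 56 in pool 1 and 27 in pool 2, held collagens at 3082 and 1628 CPM. The kept cells of pools 1 and 2 stood at 1475 and 1639 CPM. In pool 1 a UMI of a transmembrane collagen was found in 43 of the 56 of the pituicyte marker *Scn7a* also in 43, and of *Pomc*, the hormone gene of IL cells, in 43 as well. In pool 2 the 3 were found in 14, 10 and 18 of the 27. Pituicytes had the highest median mitochondrial share of the kept types (14.9%, against 4.28% to 9.98% in the others), and were thus nearest to the limit of 25%. With the limit at 10%, collagens made up 3191 CPM in pituicytes.

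The genes that fold, cleave and bind collagens were described from lists chosen with earlier results of these data known. Of 23 genes for chain folding in the endoplasmic reticulum, 8 were tested. Their median log2 fold change in pituicytes was 2.01 over the 8, against 0.59 over all genes. In pituicytes 4 of the 8 were called higher, where 16.8% of all genes were. They were the prolyl hydroxylase gene *P3h3* (3.96, SE 0.63), *P3h4* (3.21, SE 0.77), a partner of the hydroxylases, *P4ha1* (2.41, SE 0.75) and *Serpinh1* (3.11, SE 0.54), which encodes the collagen chaperone. *Serpinh1* stood at 153 ± 23.9 CPM in pituicytes, 408 ± 78.0 in VLMC, where it was called as well, and 0 in T-cell like cells and macrophage/microglia. IL cells, which had few collagens, also had 4 of the 8 called, *P3h3*, *P3h4*, *P4ha1* and *Mia3*, with a median of 1.42 against 0.55 over all genes, of which 16.9% were called.

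Of 21 genes for cleavage and assembly of fibrils 6 were tested, and 5 were called higher in VLMC, with a median of 5.98 against -0.39 over all genes, of which 2.88% were called. The largest were *Lum* (9.69, SE 0.53), *Dcn* (7.84, SE 0.37), *Bgn* (6.24, SE 0.96) and *Pcolce* (5.72, SE 1.05). *Lum* and *Dcn* are also among the markers that define the type. Vascular endothelia had *Bgn* and *Sparc* called and pituicytes and macrophage/microglia *Sparc* (1.93, SE 0.41, and 3.24, SE 0.37). *Sparc* stood at 353 ± 97.4 CPM in pituicytes and 661 ± 153 in macrophage/microglia. It was higher in VLMC, at 986 ± 271, and in vascular endothelia, at 2042 ± 396. In all these lists a called gene can stand higher in another type, since a call is against the average of the other 6. *Dcn* was called lower in IL cells and *Sparc* in T-cell like cells. For a type against the other 6, the share of all genes called lower was not counted. Of 21 other basement membrane genes 6 were tested. Pituicytes had 4 called, *Fbln2* (6.08, SE 0.72), *Fbln1* (3.07, SE 0.95), *Lamc1* (2.75, SE 0.72) and *Lamb2* (1.99, SE 0.51). Of these only *Fbln2* was highest in pituicytes, at 159 ± 57.3 CPM. *Fbln1* stood at 41.5 CPM in pituicytes and 250 in VLMC, and *Lamc1* at 75.4 and 177. *Lamb2* stood at 97.0 CPM in pituicytes and 172 in vascular endothelia. The levels in the small types rest on 6, 3 and 4 UMIs. Vascular endothelia had 1 gene called, *Hspg2* (4.61, SE 1.01), the gene of perlecan. The medians over the 6 tested genes were 2.49 in pituicytes and 2.62 in vascular endothelia. Over all genes the medians were 0.59 and -0.49, and 16.8% and 3.41% were called. *Fbln1* was called in VLMC and *Agrn* in epithelial-like cells, and *Lamb2* was lower in IL cells.

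Of 16 collagen receptors 5 were tested, with a median of -0.04 in pituicytes against 0.59 over all genes, and of 1.13 in macrophage/microglia against 0.42. The shares of all genes called were 16.8% and 16.5%. In pituicytes *Mrc2* (4.37, SE 0.80), an uptake receptor, and *Ddr1* (2.36, SE 0.79), a receptor tyrosine kinase, were called, and in macrophage/microglia *Lair1* (9.05, SE 0.59), an inhibitory receptor, and *Adgrg1* (3.85, SE 0.73). *Ddr1* was called in epithelial-like cells (3.80, SE 0.84) and IL cells (2.49, SE 0.77) as well, and *Itgb1* in T-cell like cells (1.49, SE 0.45). In T-cell like cells *Itgb1* stood at 401 CPM in pool 1 and 103 in pool 2, from 25 UMIs. In vascular endothelia it stood at 176 and 240, so T-cell like cells were not the highest in pool 2. Of 17 proteases and inhibitors 6 were tested, with a median of 2.25 in pituicytes and 1.03 in macrophage/microglia, beside the same 0.59 and 0.42 over all genes. Pituicytes had 3 inhibitors called, where 16.8% of all genes were, *Timp3* (3.65, SE 0.35), *Timp2* (3.22, SE 0.54) and *Reck* (3.14, SE 0.90). The only proteases tested were *Ctsb*, *Ctsl* and *Mmp15*, which were not called in pituicytes. *Mmp14* was not tested and stood at 73.8 ± 9.59 CPM in pituicytes, from 36 UMIs, and 58.9 ± 83.3 in VLMC, from 1 UMI. Macrophage/microglia, with 16.5% of all genes called, had *Ctsb* (3.81, SE 0.26), *Timp2* (2.82, SE 0.67) and *Ctsl* (2.15, SE 0.32), and epithelial-like cells, with 8%, *Mmp15* (4.06, SE 0.82) and *Timp3* (3.09, SE 0.46). Vascular endothelia, with 3.41% of all genes called higher, had *Timp3* higher (4.14, SE 0.46) and *Ctsb* lower. T-cell like cells had *Timp3*, *Ctsl* and *Ctsb* lower, again with no share of all genes called lower to set beside them.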

How the data were processed

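Per the labels and the methods of the study, reads were aligned and counted with Cell Ranger 2.0.0 on its prebuilt mm10 reference, with 1500 cells forced per pool. The authors deposited raw UMI counts per gene and barcode, and a table of linear normalized signal, the mean per cluster, scaled to 10000 UMIs per cell and pooled over both libraries, made with Seurat 2.3. Counts collapse PCR copies, come from 3′ ends and do not separate free RNA. Of the 1500 barcodes per pool, those with over 1000 and under 10000 UMIs, 400 to 5000 genes and under 25% mitochondrial UMIs were kept. Clusters were assigned by a non-negative fit of the deposited means, which the assigned cells gave back to within 0.05 for all but 347 of 14999 genes. UMIs were summed per pool and type into 14 sums and tested with edgeR 4.0.16 (quasi-likelihood, TMM, filterByExpr count limit 5, total limit 15). The fits were tested on simulated data. Alternatives were library size alone, DESeq2 1.42.0, no filter, pool as a block, a mitochondrial limit of 10%, Scrublet doublets left out (main: kept), clusters rebuilt with Seurat 5.3.0 without collagens, and cells with more markers of another list left out. The pool number pairs the sums, since 1 library of the same 5 mice gave all types in it. Intervals and limits (3 counts where 0 were seen) cover counting error only. Every member was named, with values for those called or with 20 or more UMIs, and up to 4 called genes per pathway list. The members and lists were chosen with earlier results of these data known.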

Additional observations from a re-analysis of the deposited data

Results flagged for a closer look

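These 3 signals lay in barcodes outside the kept cells, which the tests between cell types did not use, and T-cell like cells, the background reference, had no collagen UMI. *Col5a1*, a chain of type V collagen, had 29 UMIs in the files, all in barcodes that were not kept cells, 23 of them in pool 1 barcodes with 1 to 50 UMIs. *Col5a3*, another chain of type V collagen, had 12 UMIs, also all outside kept cells. All UMIs of both genes were from pool 1, which came with 170936 barcodes, against 1500 in pool 2. The 56 barcodes of pool 1 that failed the mitochondrial limit alone held collagens at 3081.74 CPM, against 1475 CPM in the kept cells of that pool. Pool 2 did not show this difference, with 1628 CPM in 27 such barcodes and 1639 CPM in its kept cells. The cell type of these barcodes was not tested.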

How the results depend on the processing

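Of 154 log2 fold changes of single members under the alternatives, 139 kept their direction and their side of the limit, 15 kept their direction and missed the limit, and none changed sign. Of 126 counts and shares, 102 held and 24 moved, and the cause was not tested except where fewer genes or cells were used. With no filter on low counts 35 members were tested. The number of collagens called was then 12 in pituicytes, 1 in macrophage/microglia (*Col27a1*) and 11 in pituicytes against IL cells. Of all genes, 12.4%, 6.78% and 4.51% were called. With a mitochondrial limit of 10%, which left fewer cells and 8 members tested, the number was 3 in pituicytes and 3 against IL cells. Of all genes, 9.11% and 6.99% were called. With that limit the collagen share was 3191 CPM in pituicytes and 323 in epithelial-like cells. With DESeq2 the number was 3 for pituicytes against IL cells, where 3.61% of all genes were called. With clusters rebuilt without collagens 13 members were tested. The number called was 10 for that contrast, 9 in pituicytes and 1 in macrophage/microglia, where 10.4%, 15.4% and 14.3% of all genes were. Epithelial-like cells, vascular endothelia and VLMC were joined in 1 cluster of 45 cells and got no value. In VLMC the number called was 5 of 10 with library size alone, where 4.24% of all genes were. It was 5 of 12 with cells of mismatched markers left out, where 2.2% were. Without those cells collagens made up 7384 CPM in VLMC and 413 CPM in epithelial-like cells. For vascular endothelia against VLMC, the number higher was 0 with DESeq2 and 0 without the mismatched cells, where 1.06% and 2.48% of all genes were. The number lower was 1 with DESeq2, no filter, the mitochondrial limit and doublets left out. Of all genes, 0.488%, 0.178%, 1.4% and 1.01% were lower.

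With the pool as a replicate block, which pairs sums of the same mice, 1 member was lower in vascular endothelia against VLMC, where 1.02% of all genes were. No other call of a member changed. The block raised the genes called between pituicyte clusters from 5 to 15, and no filter to 16 of 13331, with 0 collagens called in each. Thinning gave shares of 76.5%, 63.8% and 32.7% for *Col25a1*, *Col13a1* and *Col23a1*. Without replicate 2, the log2 ratio of *Col1a1* in pituicytes to all other cells was -0.14, and without replicate 1 it was 1.22. It was 0.54 over both pools, and the other 23 ratios with a pool left out kept their sign. Over all genes, 756 were called in pituicytes, 358 with DESeq2, 2017 with no filter and 215 with the mitochondrial limit. In IL cells 760 were called, and 478 with library size alone, 344 with DESeq2, 2304 with no filter and 271 with the mitochondrial limit. That limit moved the calls from 745 to 405 in macrophage/microglia and from 427 to 282 in T-cell like cells. A total of 361 were called in epithelial-like cells, and 180 with DESeq2 and 120 with the mitochondrial limit. In vascular endothelia 154 were called, and 237 with library size alone. In VLMC 130 were called, and 79 with DESeq2, 84 with the mitochondrial limit and 79 without mismatched cells. For pituicytes against IL cells 452 were higher and 303 lower, and 163 and 94 with DESeq2, 733 and 631 with no filter and 165 and 115 with the mitochondrial limit. For vascular endothelia against VLMC 73 were higher, and 48 with DESeq2, and 51 were lower, and 22 with DESeq2, 29 with no filter, 33 with the mitochondrial limit and 32 without mismatched cells. Small types limit depth most, with 23834 UMIs in vascular endothelia and 23589 in VLMC, and only 2 pools give the spread.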
